A study of Mus musculus with 40 samples.

Results

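The Il10 family cytokine cluster is a run of neighbouring genes on mouse chromosome 1. The 5 genes described here are Il24, Il20, Il19, Il10 and Mapkapk2, out of 39179 genes in the RNA table. They were chosen by name, with earlier results of these data known. They were followed through 18 RNA libraries of mouse spleen CD4+ T cells and through 13 lists of chromatin peaks from the same kinds of cells. Naive WT cells (C57BL/6 Setdb1+/+, 4 libraries) and naive Setdb1 KO cells (C57BL/6 Setdb1-/-, 3 libraries) were compared with T helper 2 (Th2) cells, 3 libraries of each genotype, grown for 6 days with anti-CD3, anti-CD28, IL-4 and anti-IFN-gamma and replated in IL-2 on day 3. Cells called Th2-Th1 here (2 WT and 3 Setdb1 KO libraries) were Th2 cells given IL-12 and anti-IL-4 for 2 more days. Suv39h1-/- Th2 cells were profiled only for H3K9me3. The labels do not say which cells lost Setdb1, by which driver, or which exons were removed, nor whether replicates came from separate animals or cultures, so the p-values below measure the spread between these libraries.

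IL-10 is a cytokine that many T helper cells make to restrain inflammation, by acting on myeloid cells and on T cells through the receptor chains IL-10RA and IL-10RB and the transcription factor STAT3. IL-19, IL-20 and IL-24 belong to the same family by structure, but they signal mainly to epithelial and other tissue cells, through receptors built from IL-20RA, IL-20RB and IL-22RA1. Mapkapk2 encodes MK2, a kinase activated by p38 that lets unstable cytokine messages persist and be translated. Th2 cells are a known source of IL-10 and, in the mouse, of IL-24. SETDB1 and SUV39H1 are enzymes that place H3K9me3, a histone methylation found in silenced chromatin, whereas H3K4me1, H3K27ac and accessible chromatin (ATAC-seq) mark regulatory DNA that is poised or active.

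On GRCm38 (mm10) the RefSeq annotation places Il24 at chr1:130882074-130887411, Il20 at chr1:130906985-130911296, Il19 at chr1:130932656-130945457, Il10 at chr1:131019845-131024970 and Mapkapk2 at chr1:131053700-131097871. The gaps between neighbours were 19573 bases from Il24 to Il20, 21359 bases from Il20 to Il19, 74387 bases from Il19 to Il10 and 28729 bases from Il10 to Mapkapk2. Taken with 50 kb on each side the genes form 1 unbroken window of 315.8 kb.

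RefSeq promoters (250 bases before to 50 bases after the start, GRCm38.p6, minus strand) were at hand for 3 of the 5 genes, and they are shown because the peaks described below fall on them differently; Il10 and Il24 are named only. Capitals mark every match, on either strand, to a motif of a factor that drives cytokine genes in T cells.
Il20, chr1:130911247-130911546: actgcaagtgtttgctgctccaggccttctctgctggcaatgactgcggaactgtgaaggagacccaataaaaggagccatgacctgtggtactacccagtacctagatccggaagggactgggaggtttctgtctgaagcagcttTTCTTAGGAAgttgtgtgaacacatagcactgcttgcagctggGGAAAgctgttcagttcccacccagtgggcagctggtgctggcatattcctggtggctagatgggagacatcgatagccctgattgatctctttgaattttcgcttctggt
Il19, chr1:130940066-130940365: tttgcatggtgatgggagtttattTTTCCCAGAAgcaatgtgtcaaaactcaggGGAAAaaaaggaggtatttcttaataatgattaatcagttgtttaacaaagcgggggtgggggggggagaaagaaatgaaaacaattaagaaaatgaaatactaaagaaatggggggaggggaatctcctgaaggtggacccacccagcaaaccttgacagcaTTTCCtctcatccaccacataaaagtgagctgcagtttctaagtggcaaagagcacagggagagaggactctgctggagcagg
Mapkapk2, chr1:131097794-131098093: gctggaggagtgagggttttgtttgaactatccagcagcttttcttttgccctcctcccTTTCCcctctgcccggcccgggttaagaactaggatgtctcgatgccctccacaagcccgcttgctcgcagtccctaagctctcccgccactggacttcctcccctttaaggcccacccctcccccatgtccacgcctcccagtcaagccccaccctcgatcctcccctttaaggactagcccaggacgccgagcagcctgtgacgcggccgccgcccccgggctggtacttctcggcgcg
The Il20 promoter held 1 match to the spacing that STAT6 prefers (TTC and GAA with 4 letters of any kind between them), present in 6.95% of 32851 promoters of this length, and 1 match to the NFAT core (GGAAA), present in 61.3%. The Il19 promoter held 1 match to the general STAT motif (TTCNNNGAA), present in 8.3% of promoters, and 3 matches to the NFAT core, 1 of which overlaps the STAT match. On the minus strand the Il19 span begins at 130945457, so the printed Il19 window lies inside the gene, at an internal start. The Mapkapk2 promoter held 1 NFAT core match. None of the 3 windows held AP-1 (TGANTCA, 7.81% of promoters), a GATA motif (AGATAA or TGATAA, each also with G as the last letter, 29.8%), the short MAF motif TGCTGA (19.5%) or, on the printed strand, TATAAA (8.32%). Mapkapk2 had the promoter richest in G and C of the 3, at 63.3% with 18 CpG pairs. The Il20 promoter had 51.3% and 4 CpG pairs and the Il19 promoter 44% and 1, beside medians of 52.7% and 7 over all promoters.

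Values in the RNA table are each gene's reads after scaling by the library's size factor. Library totals were 10.019 to 18.511 M reads for naive cells, 10.141 to 13.258 M for Th2 WT, 36.261 to 44.719 M for Th2 KO, 18.901 to 19.841 M for Th2-Th1 WT and 37.208 to 37.603 M for Th2-Th1 KO, so depth moved with genotype in cultured cells. Setdb1 itself was at 1310 ± 66.4 (SD, n = 4) in naive WT and 1006 ± 87.2 (SD, n = 3) in naive KO libraries. In Th2 cells it was at 823 ± 121 in WT and 8485 ± 503 in KO (SD, n = 3 each), and in Th2-Th1 cells at 1603 ± 12.1 (SD, n = 2) and 6244 ± 1020 (SD, n = 3). The cultured libraries labelled Setdb1 KO thus held more Setdb1 reads than WT, and a count over the whole gene cannot say which part was deleted, so KO below means the libraries labelled Setdb1 KO. In 3 naive libraries (WT replicates 1 and 3, KO replicate 2) 21253, 25556 and 22222 genes had a read after thinning to 1 depth, while the other 4 had 15116 to 18670, and values without those 3 are given where naive cells enter. The T cell identity genes (8 genes) were present in every group.

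Th2 culture switched on Il10, Il24 and, at a far lower read number, Il19, raised Mapkapk2, and left Il20 near 0. Libraries labelled KO reached lower values of Il10, Il24 and Mapkapk2 than WT after Th2 culture, and of Il10 and Mapkapk2 after the IL-12 switch, while Il24 no longer differed detectably. Because RNA was measured in bulk, fewer expressing cells and less RNA per cell cannot be told apart.

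**Figure D1:**
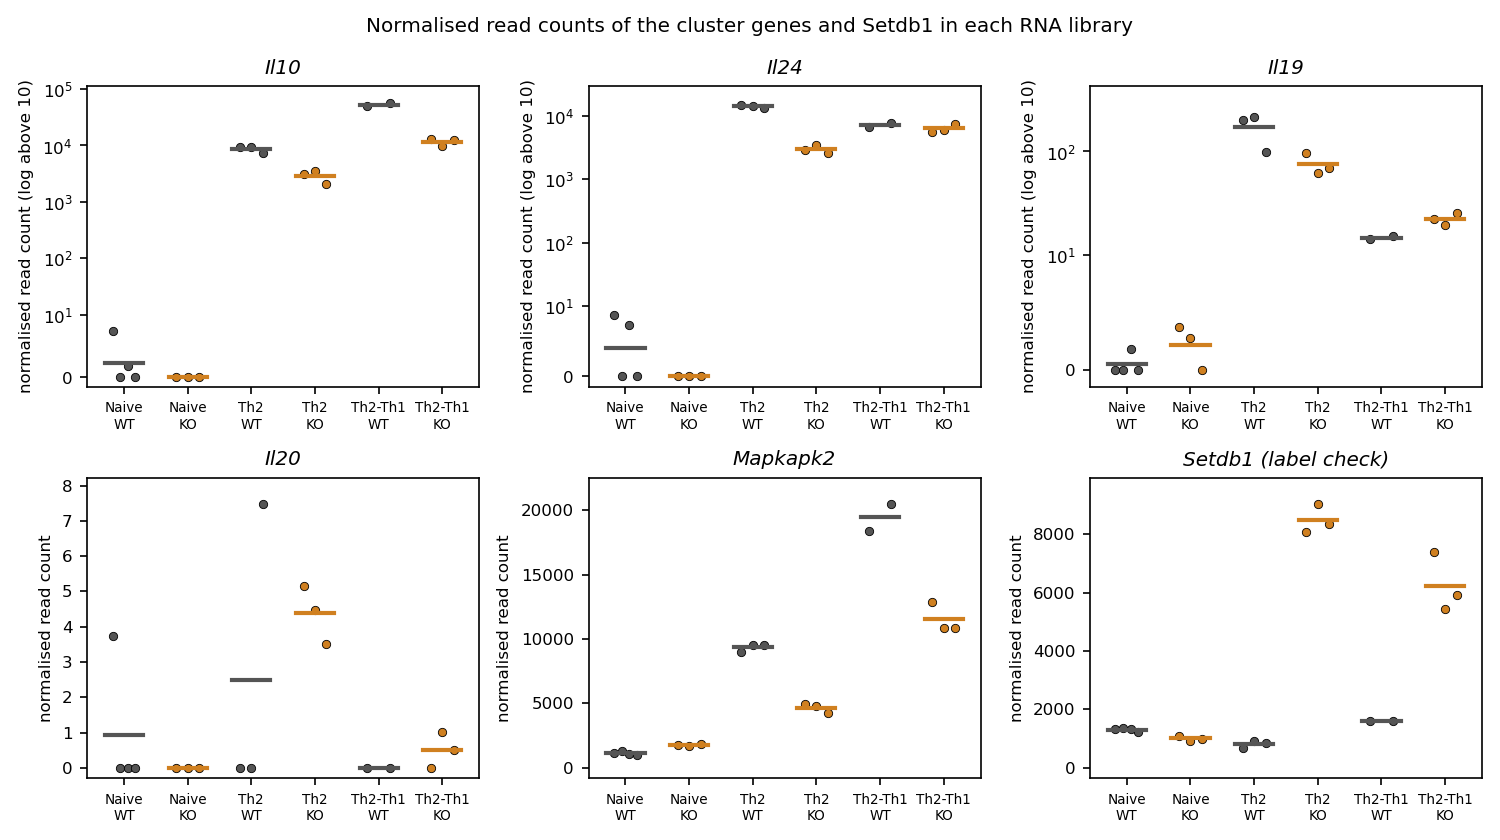
Normalised read count of Il10, Il24, Il19, Il20, Mapkapk2 and, as the label check, Setdb1 in each of the 18 RNA libraries (points by group, grey for WT and orange for KO; bars are group means; the axes of Il10, Il24 and Il19 are logarithmic above 10 and linear below). Il10 and Il24 are near 0 in naive cells and between 2085 and 56691 after culture, Il20 is at most 7.48 in any library, and Mapkapk2 is present in naive cells and rises.

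Il10, the founding member of the family, was at 7.48 and 1.81 in 2 naive WT libraries and at 0 in the other 2, and it was at 0 in all 3 naive KO libraries. Both naive WT libraries with Il10 reads (6 and 1 reads) were among those with many genes detected. After Th2 culture Il10 stood at 9563, 9218 and 7496 in WT and at 3183, 3472 and 2085 in KO libraries. Each WT library was above each KO library, and no cultured library came near the naive range. The Th2 KO mean was at least 772-fold higher than naive KO, counting 3 reads per library as the floor.

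Against WT, Il10 in Th2 KO libraries was 2914 ± 732 beside 8759 ± 1107 (SD, n = 3 each), a log2 difference of -1.61 ± 0.510 (SE) with an adjusted p of 0.0116 in limma. That call was lost without Th2 KO replicate 3, the lowest Il10 library, where the difference was -1.39 and the adjusted p 0.0542.

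After 2 days with IL-12 and anti-IL-4, Il10 was at 49380 and 56691 in WT and at 12848, 9875 and 12496 in KO libraries. The groups did not overlap, and every Th2-Th1 library of a genotype was above every Th2 library of that genotype. The means were 53035 ± 5170 (SD, n = 2) in WT and 11740 ± 1624 (SD, n = 3) in KO, 4.52-fold apart (log2 -2.18 ± 0.570 SE, limma adjusted p = 0.00565). Without Th2-Th1 WT replicate 2 the difference was -2.08 and the adjusted p 0.0552. From Th2 to Th2-Th1, Il10 rose 6.05-fold in WT (log2 2.60, limma adjusted p = 0.000788) and 4.03-fold in KO libraries (log2 2.03, limma adjusted p = 0.00504). The difference between the 2 rises was not called (log2 -0.57 ± 0.765 SE, limma adjusted p = 0.624).

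Il24, which is known in the mouse as a gene of Th2 cells, was at 0 to 8.73 in naive WT and at 0 in all naive KO libraries. In Th2 WT it stood at 14923, 14440 and 13486, and in Th2 KO at 2947, 3529 and 2637. The 2 groups lay far apart, with a spread within each that was small beside the gap. The means of 14283 ± 731 and 3037 ± 453 (SD, n = 3 each) were 4.70-fold apart (log2 -2.24 ± 0.614 SE, limma adjusted p = 0.00440). The Th2 KO mean was at least 805-fold higher than naive KO with the same floor.

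In Th2-Th1 cells Il24 was at 6723 and 7722 in WT and at 5577, 6037 and 7547 in KO libraries. Here the groups overlapped, and the difference of -0.19 had a 95% interval from -1.62 to 1.25 on the log2 scale (limma adjusted p = 0.887). The WT mean went from 14283 to 7223 with the switch, by -0.99 (limma adjusted p = 0.256), and the KO mean from 3037 to 6387, by 1.07 (limma adjusted p = 0.234), neither a call. Both were called when the fit left out the 3 naive libraries (limma adjusted p = 4.99e-05 and 1.77e-05). The difference between those 2 changes was 2.06 ± 0.921 (SE) with a limma adjusted p of 0.0914. It was called in 6 other fits, with edgeR on the recovered reads at an adjusted p of 4.2e-05 and with the reads thinned to equal depth at 0.0148.

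**Figure D2:**
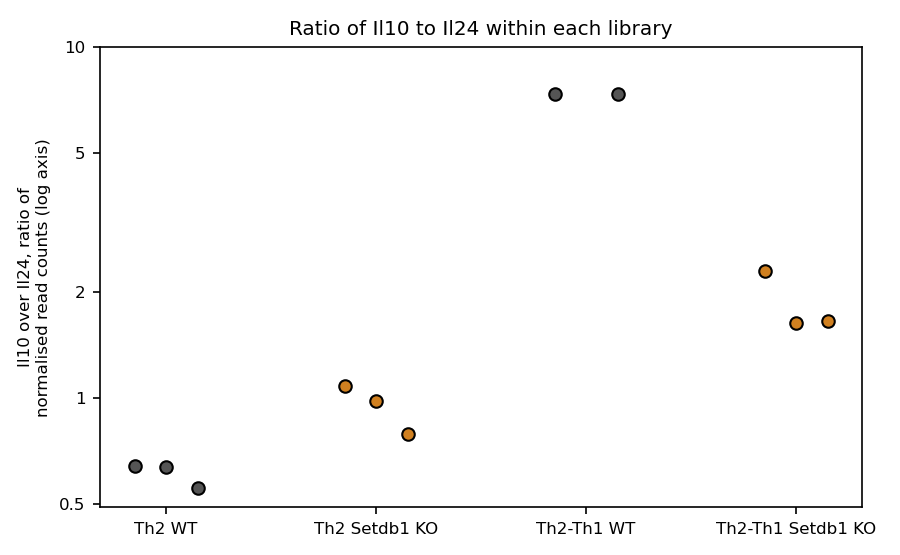
Ratio of the deposited Il10 value to the deposited Il24 value in each cultured library (points by group, log axis). Th2 WT libraries lie between 0.556 and 0.641, Th2 KO libraries between 0.791 and 1.08, Th2-Th1 KO libraries between 1.64 and 2.30 and both Th2-Th1 WT libraries at 7.34.

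The balance of these 2 cytokine messages was also followed within each library. The ratio of Il10 to Il24 was 0.641, 0.638 and 0.556 in Th2 WT and 1.08, 0.984 and 0.791 in Th2 KO libraries. After the switch it was 7.34 in both WT libraries and 2.30, 1.64 and 1.66 in KO libraries. None of the 4 groups overlapped another, with KO above WT before the switch and below it after, and the ratio is read here only between groups, since the 2 genes differ in length. The plot of the ratio by group shows this crossing.

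Il19, an epithelial-acting member of the family, was carried by few reads. Naive libraries held at most 3 reads. Th2 WT libraries were at 202, 215 and 99.8 (100, 116 and 40 reads) and Th2 KO libraries at 96.2, 62.2 and 69.9 (242, 139 and 140 reads). The lowest WT value was just above the highest KO value, and the difference of -1.11 ± 0.616 (SE) was not called, with a limma adjusted p of 0.138. In Th2-Th1 cells Il19 stood at 14.2 and 15.1 in WT and at 22.0, 19.5 and 25.6 in KO libraries, all below the Th2 values. It fell by 3.39 on the log2 scale with the switch in WT (limma adjusted p = 0.000386) and fell by 1.70 in KO (limma adjusted p = 0.0466). The KO call was lost without any 1 of its 6 libraries, with adjusted p from 0.0818 to 0.16.

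Il20, another ligand of the IL-20 receptors, did not pass the filter on low values (at least 10 in at least 2 libraries), so 4 of the 5 genes were tested. Th2 KO libraries held 13, 10 and 7 reads of it, equal to values of 5.17, 4.48 and 3.50. Of the 3 Th2 WT libraries 1 held 3 reads (a value of 7.48) and 2 held none, and at the WT depth a level like that of the KO libraries amounts to only a few reads. No difference in Il20 was detectable at this depth.

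Mapkapk2, the kinase gene at the far end, was well covered in every library. In naive cells it ran from 1022 to 1301 in WT and was at 1736, 1725 and 1847 in KO libraries. No naive KO library fell into the WT range, and the KO mean was 1.57-fold higher (log2 0.65 ± 0.0945 SE, limma adjusted p = 0.000108). Without the 3 naive libraries with many genes detected Mapkapk2 was higher by 0.63 (limma adjusted p = 0.00754). After Th2 culture the order was the opposite, with 9009, 9534 and 9572 in WT and 4950, 4823 and 4252 in KO libraries (log2 -1.01 ± 0.101 SE, limma adjusted p = 7.72e-08). After the switch WT libraries stood at 18401 and 20506 and KO libraries at 12858, 10857 and 10897 (log2 -0.76 ± 0.113 SE, limma adjusted p = 3.83e-05). The WT groups rose 8.30-fold from naive to Th2 and 2.08-fold with the switch. KO libraries rose 2.64-fold and 2.47-fold. The rise with Th2 culture was smaller in KO libraries, with a difference of -1.66 ± 0.138 (SE) on the log2 scale and a limma adjusted p of 2.15e-08 (-1.64 and 2.41e-06 without the 3 naive libraries).

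**Figure D3:**
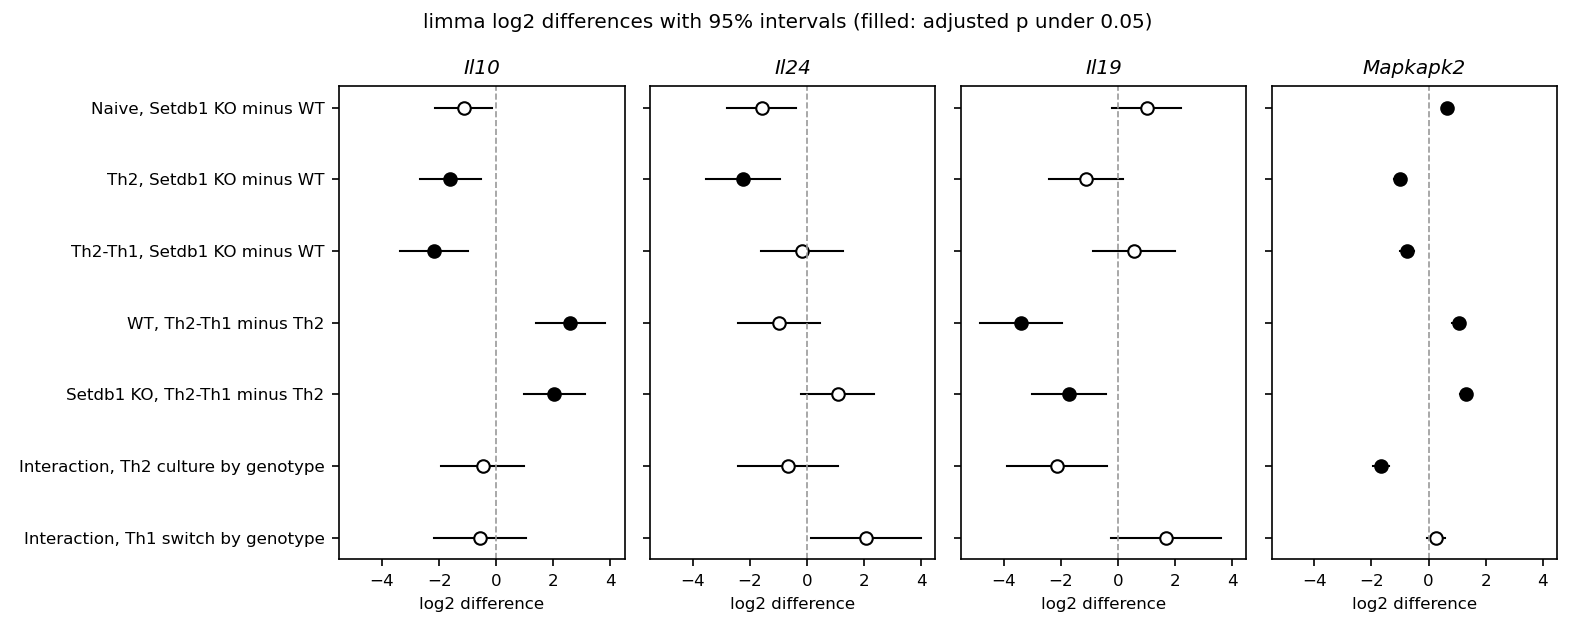
Log2 differences of the 4 tested genes with 95% intervals from the limma fit of all 18 libraries, 1 panel a gene and 1 row a comparison (filled points have an adjusted p under 0.05). In Th2 cells the intervals of Il10, Il24 and Mapkapk2 lie below 0, and in Th2-Th1 cells those of Il10 and Mapkapk2 do while that of Il24 spans 0.

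Counted together, 1 of 4 tested genes, Mapkapk2, was called higher in KO in naive cells, also without the 3 naive libraries (10.9% of all 17254 tested genes, 7.43% higher), 3 of 4, all lower, in Th2 cells (54% of all genes, 24.7% lower) and 2 of 4, both lower, in Th2-Th1 cells (33.7%, 16.1% lower). All 4 rose with Th2 culture in WT (65.9% of genes called, 32.8% higher) and in KO libraries (53.5%, 28.3% higher), with and without the 3 naive libraries. Il10, Il24 and Il19 were under 10 in every naive library and passed the filter only through cultured libraries. Their part in this count was thus largely set by the filter, and Mapkapk2 alone was free of that. With the switch 3 of 4 were called in WT (49.8%), Il10 and Mapkapk2 higher (25.8%) and Il19 lower (24%). The same 3 were called in KO libraries (26.7%, 13% higher and 13.6% lower). Of the tests of a difference between genotypes in the response, 1 of 4, Mapkapk2, was called for Th2 culture (41.3%, 20.6% lower) and 0 of 4 in limma for the switch (35.5%). For the switch 1 of the 4 had an unadjusted p under 0.05 in limma, edgeR called 1 (35.9% of genes) and DESeq2 called 2 (37.9%). For Th2 culture edgeR (39.9%) and DESeq2 (41.8%) each called Mapkapk2 and Il19, and in naive cells DESeq2 called Mapkapk2 and Il24 (14.8%). Calls were frequent among all genes in the cultured comparisons, so these counts alone do not set the cluster apart. With TMM scaling the median log2 difference of all genes in Th2 cells moved from 0.128 to 0.238, and relative to the median the KO difference of Il24 was -2.37 with the deposited scaling and -2.34 with TMM, and that of Mapkapk2 -1.13 and -1.11.

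Across the 18 libraries the log2 values of Il10 and Il24 had a Pearson r of 0.986, and Il10 and Mapkapk2 one of 0.952. Il19 followed the others less closely, at 0.885 with Il24 and 0.738 with Mapkapk2. All these values share the large step from naive to cultured cells, so they describe that step. Among 10164 genes, those most like Il10 were Lgals1 (r = 0.991), Lrrc59 (0.990), Hk2, Nts and Cth. Cth, an enzyme of cysteine synthesis, was lower in Th2 KO (log2 -3.01, limma adjusted p = 7.14e-07), while Lgals1, which encodes galectin 1, differed by -0.25 (limma adjusted p = 0.211). Most like Il24 were Cysltr1 (r = 0.995), a leukotriene receptor, and Dmwd (0.995), then Nupr1, Htr1b and Gpm6b. Of these 5, 4 were called lower in Th2 KO and not called in Th2-Th1 cells, among them Cysltr1 (log2 -1.70, limma adjusted p = 0.00317, and -0.01, limma adjusted p = 1). Htr1b, a serotonin receptor, did the reverse, with no call in Th2 cells (-1.11, limma adjusted p = 0.0996) and a lower value in Th2-Th1 KO (-2.05, limma adjusted p = 0.0144). All were picked for likeness over these same libraries, so their differences are a description. Most like Il19 were Prep (0.977), Arid5a (0.976), Gpld1, Men1 and Xpnpep1, and most like Mapkapk2 were Ehd1, Ndfip1 (0.988), Abcc1, Eea1 and Ctla4 (0.987). Ctla4, an inhibitory receptor of T cells, was lower in Th2 KO (log2 -2.62, limma adjusted p = 2.09e-09).

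Of the receptor chains for these ligands, Il10ra, the ligand-binding chain for IL-10, followed the order of Mapkapk2. It was higher in naive KO libraries, at 986, 998 and 1063 against 353 to 549 in WT (log2 1.27 ± 0.143 SE, limma adjusted p = 5.6e-06), and by 1.36 without the 3 naive libraries (limma adjusted p = 4.25e-05). In Th2 cells it was lower in KO, at 2510, 2979 and 2028 against 3984, 4027 and 4433 (log2 -0.74 ± 0.153 SE, limma adjusted p = 0.000384). In Th2-Th1 cells the KO libraries were at 1945, 1714 and 1464 against 4669 and 4839 (log2 -1.49 ± 0.171 SE, limma adjusted p = 2.01e-06). The genotypes did not overlap in any of the 3.

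Il20ra, a chain of the receptor for IL-19, IL-20 and IL-24, was at 218, 134 and 155 in Th2 WT and at 5.17, 5.37 and 8.49 in Th2 KO libraries (log2 -4.53 ± 0.705 SE, limma adjusted p = 2.04e-05). It was at 0 in every naive library but 1, and at most 5.81 in any Th2-Th1 library, so its level was above the rest in Th2 WT. Its partner Il20rb was higher in Th2 KO (38.9, 53.7 and 53.5) than in WT (20.2, 27.8 and 7.48), by 1.51 (limma adjusted p = 0.00837). Il10rb, the shared second chain, was higher by 0.70 (limma adjusted p = 0.00266). Il22ra1 was at 0 in 16 of 18 libraries, and of the other two 1 held 4 reads and the second 1 read.

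Among 5 tested receptor genes 2 were thus higher and 2 lower in Th2 KO (beside 29.3% and 24.7% of all genes), their median was 0.703 beside 0.128 over all genes, and 1 was lower in Th2-Th1 KO (16.1% of all genes). Of the family's ligands encoded elsewhere, Il22 rose with the switch in KO libraries to 21.5, 35.1 and 63.6, against 3.54 and 11.6 in WT (log2 2.31, limma adjusted p = 0.122 between genotypes). Iltifb, which is nearly identical to Il22 so that reads may be split between them, was at 11.5, 11.2 and 24.98 in Th2 KO and at 0 in Th2 WT. The list of 14 genes that carry the receptor signal held Stat3, the main factor downstream of IL-10, lower in Th2 KO (log2 -1.93, limma adjusted p = 1.55e-10), and Socs3, a STAT3 target that blocks cytokine signals, likewise lower (log2 -2.54, limma adjusted p = 3.22e-10). In all, 4 of the 14 were higher and 8 lower there, beside 29.3% and 24.7% of all genes, with a median of -0.435 beside 0.128.

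**Figure D4:**
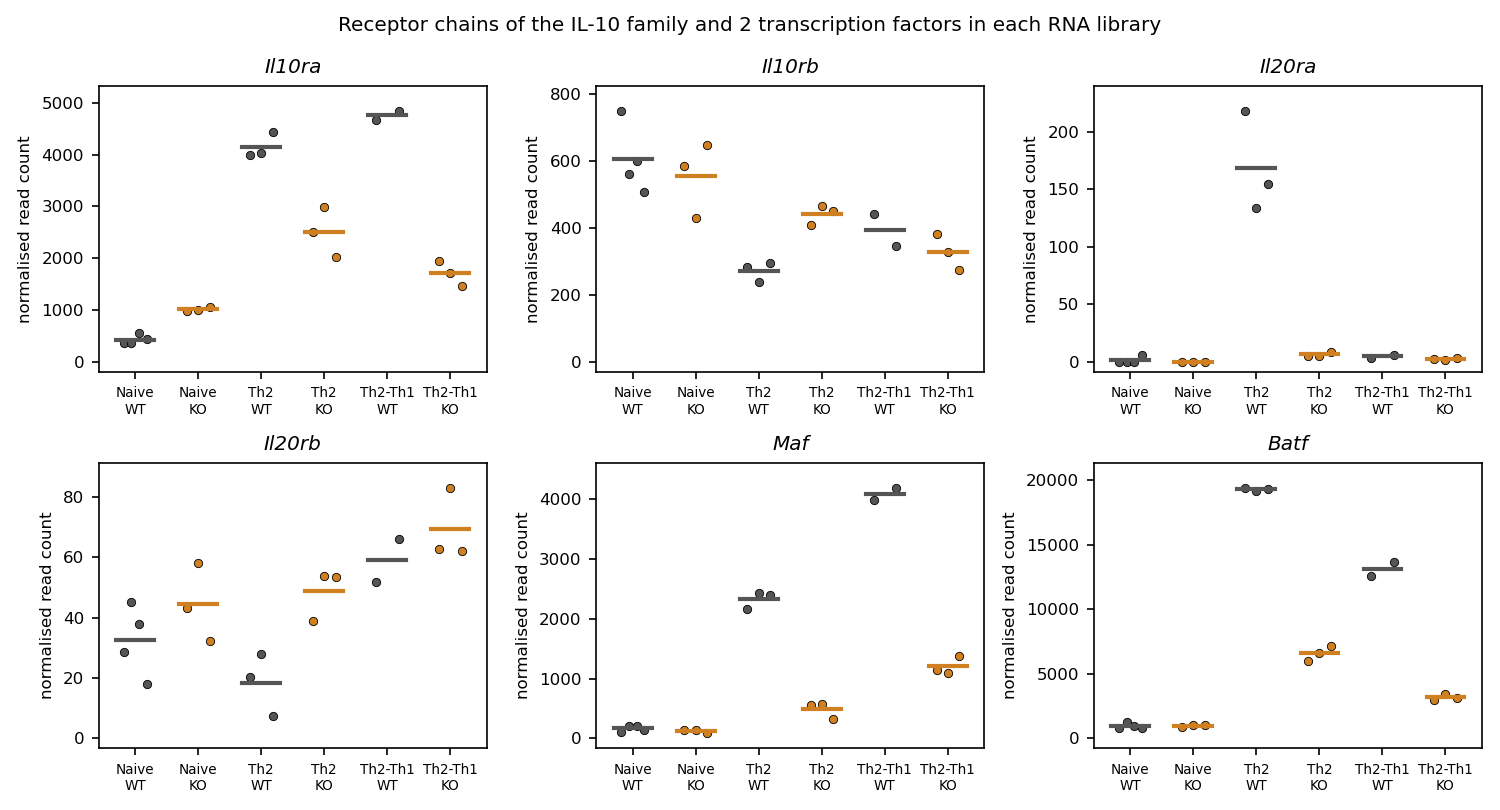
Normalised read count of the receptor chains Il10ra, Il10rb, Il20ra and Il20rb and of the transcription factors Maf and Batf in each RNA library (points by group, linear axes, bars are group means). Il10ra, Maf and Batf have their WT libraries above the KO libraries in Th2 and Th2-Th1 cells, and Il20ra is at 134 to 218 in Th2 WT and at most 8.49 elsewhere.

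Transcription factors that are known to act on Il10 in T cells moved with it in part. Maf, which binds and activates Il10 in several T helper types, was at 2162, 2436 and 2405 in Th2 WT and at 560, 571 and 321 in Th2 KO libraries (log2 -2.31 ± 0.249 SE, limma adjusted p = 1.95e-07). After the switch its values were 3992 and 4195 in WT and 1151, 1098 and 1374 in KO (log2 -1.77 ± 0.278 SE, limma adjusted p = 6.57e-05). As for Il10, the genotypes did not overlap and both rose with the switch, Maf by 0.81 in WT and 1.36 in KO (limma adjusted p = 0.0205 and 0.000341).

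Batf, an AP-1 family factor needed for effector T cells, was also lower in KO in Th2 (log2 -1.56, limma adjusted p = 3.15e-08) and in Th2-Th1 cells (log2 -2.04, limma adjusted p = 2.29e-08), but it fell with the switch in both genotypes while Il10 rose. Gata3, the master regulator of Th2 cells, differed by 0.04 in Th2 (limma adjusted p = 0.901) and by -1.28 in Th2-Th1 cells (limma adjusted p = 0.000213). Prdm1, which encodes BLIMP1, was not called in either (-0.40, limma adjusted p = 0.103, and 0.38, limma adjusted p = 0.209). Tbx21, the Th1 regulator, was 3.25 higher in Th2 KO (limma adjusted p = 0.000917), at values of 17.9, 13.4 and 8.49. It reached 1942, 2086 and 2485 in Th2-Th1 KO against 138 and 199 in WT.

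Over the list of 23 such regulators 13 were lower and 5 higher in Th2 KO, beside 24.7% lower and 29.3% higher among all genes, with a median of -0.651 beside 0.128, and TMM scaling gave the same counts. The lower genes included the ligand-activated factor Ahr (-2.65), the nuclear receptors Pparg (-2.71) and Rora (-2.56) and Bhlhe40 (-2.49), which is known in mouse T cells as a repressor of Il10 and not an activator. In Th2-Th1 KO 7 were lower and 5 higher, beside 16.1% and 17.6% of all genes, with a median of 0.310 beside 0.0875.

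The Th2 cytokines of another locus served as a comparison. Il4, Il5 and Il13 had log2 differences of -1.66, -1.66 and -1.70 in Th2 KO (limma adjusted p = 3.13e-05, 0.00827 and 0.000719), close to the difference of Il10, and of -3.60, -2.62 and -3.07 in Th2-Th1 KO. With the switch they rose in WT by 4.26, 5.97 and 6.19.

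Around MK2, the p38 and MK2 list of 18 genes had 8 higher and 3 lower members in Th2 KO, beside 29.3% and 24.7% of all genes, with a median of 0.310 beside 0.128, and 9 higher with TMM scaling. With 54% of all genes called there, that share is near the background. Mapk14, which encodes the p38 kinase that activates MK2, was 2.84 higher (limma adjusted p = 8.17e-13), opposite to Mapkapk2, and Map2k6, a kinase upstream of p38, was lower (log2 -1.01, limma adjusted p = 7.93e-05). Hspb1, a small heat shock protein phosphorylated by MK2, was lower still (log2 -6.54, limma adjusted p = 5.68e-07). Zfp36, whose protein tristetraprolin promotes the decay of cytokine messages and is held back by MK2, differed by -0.01 (limma adjusted p = 1).

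Of 11 annotated genes within 100 kb of the cluster, 8 had a row in the RNA table. Fcamr, Gm15848 and Gm25549 did not exceed 15.8 in any library. Pigr, which carries antibodies across epithelia, was at 12.1, 3.71 and 12.5 in Th2 WT (at most 6 reads) and at 0 in KO (limma adjusted p = 0.0165). Faim3 (Fcmr), an IgM receptor gene next to Il24, was at 161, 254 and 217 in Th2 WT and at 110, 102 and 101 in KO. There was no overlap but no call (log2 -0.99 ± 1.02 SE, limma adjusted p = 0.445). That SE includes the naive libraries, where WT values ran from 0 to 41.6. On the other side Dyrk3, a kinase gene, rose with Th2 culture by 5.09 in WT (limma adjusted p = 6.22e-07) and did not differ detectably between genotypes in Th2 cells (-0.03, limma adjusted p = 0.992). Eif2d differed by -0.05 (limma adjusted p = 0.762), and Rassf5, a RAS effector gene, was 0.86 higher in Th2 KO (limma adjusted p = 3.52e-06).

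Markers of other cells moved with genotype in Th2 culture. The 8 mast cell and basophil markers summed to 290 to 406 in Th2 KO and to 0 to 10.1 in Th2 WT libraries through Cpa3, a mast cell protease gene, while 5 of the 8, the receptor genes Fcer1a and Ms4a2 among them, were at 0 in every Th2 KO library. The myeloid list summed to 5103 to 5860 against 1757 to 2253, through Emr1 at 4659 to 5438 against 1243 to 1602, while Lyz2, a defining macrophage gene, averaged 0.598 and was at 0 in WT. Flt3 and Cd68 went the other way, at means of 4.35 against 156 and 61.5 against 114 in WT. Of 9 tested myeloid genes 1 was called higher and 1 lower, beside 29.3% and 24.7% of all genes. The B cell list summed to 61.9 to 68.5 against 68.6 to 120, with Ebf1 at a mean of 0.729 against 52.9. Cd79b and Fcrla went the other way, at 47.8 against 27.7 and 10.9 against 0 in WT. Of its 9 genes 1 was called higher and 1 lower, beside 29.3% and 24.7% of all genes. The 7 regulatory T cell markers, of another source of IL-10, summed to 33157 to 41559 against 78281 to 85594, with Ikzf2 and Ikzf4 called higher and Ctla4 and Tnfrsf18 called lower. Foxp3, which defines those cells, averaged 3.77 against 21.0 and was not called (limma adjusted p = 0.0731), while Ikzf2 averaged 249.9 against 29.7. The 8 CD8 and NK cell markers summed to 5693 to 5717 against 11117 to 14384, mostly Gzma, a granzyme gene, at 5444 against 12223, while Cd8a averaged 25.1 and was at 0 in WT. Cd8b1 went the other way, at a mean of 78.2 against 150.5 in WT, and Eomes averaged 107.8 against 1.66. Of 6 tested markers of this list 2 were called higher and 2 lower, beside 29.3% and 24.7% of all genes. The 7 naive T cell markers summed to 5214 to 6398 against 17483 to 18273, with 4 called lower, S1pr1 and Il7r among them, and 1, Tcf7, higher. The summed T cell identity list was lower, at 46802 to 54131 against 78854 to 83981, mostly through Cd2, at a mean of 15116 against 38189. Cd3e and Trac went the other way, at means of 1081 against 565 and 2307 against 1376 in WT. Of the 8 genes 4 were called lower and 2 higher, beside 24.7% and 29.3% of all genes. In naive cells 4 of the 7 regulatory T cell markers were called higher in KO, beside 7.43% of all genes, and 0 lower. These were Il2ra, Ikzf4, Ctla4 and Tnfrsf18, of which Ctla4 was not called without the 3 naive libraries. Il2ra averaged 157 against 26.4 in WT. Foxp3, at 180 against 38.4, was not called (limma adjusted p = 0.0555), and Lrrc32, another of the 7, was at 0.382 against 3.79. The part of other cells in the lower Il10, Il24 and Mapkapk2 values, or in the higher naive Mapkapk2 and Il10ra values, was not tested.

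Chromatin in the window was described from 320 peaks in 13 lists. Each list is a single call set of the authors with no replicate, so these are counts and positions without a test, and scores are the authors' own. The window went from 14 H3K4me1 peaks in naive WT cells, covering 7.06% of it, to 25 peaks covering 49.4% in Th2 WT. All 14 naive peaks overlapped a Th2 peak (95% exact Clopper-Pearson interval 76.8 to 100%), beside 78.5% genome-wide. H3K4me1 covered 0% of Il10 and of Il24 in naive cells and 74.5% and 80.6% in Th2 WT cells. Il20 went from 0 to 39.2% and Il19 from 5.27 to 10.6%. Mapkapk2, already expressed in naive cells, went from 32.4 to 71.4%.

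**Figure D5:**
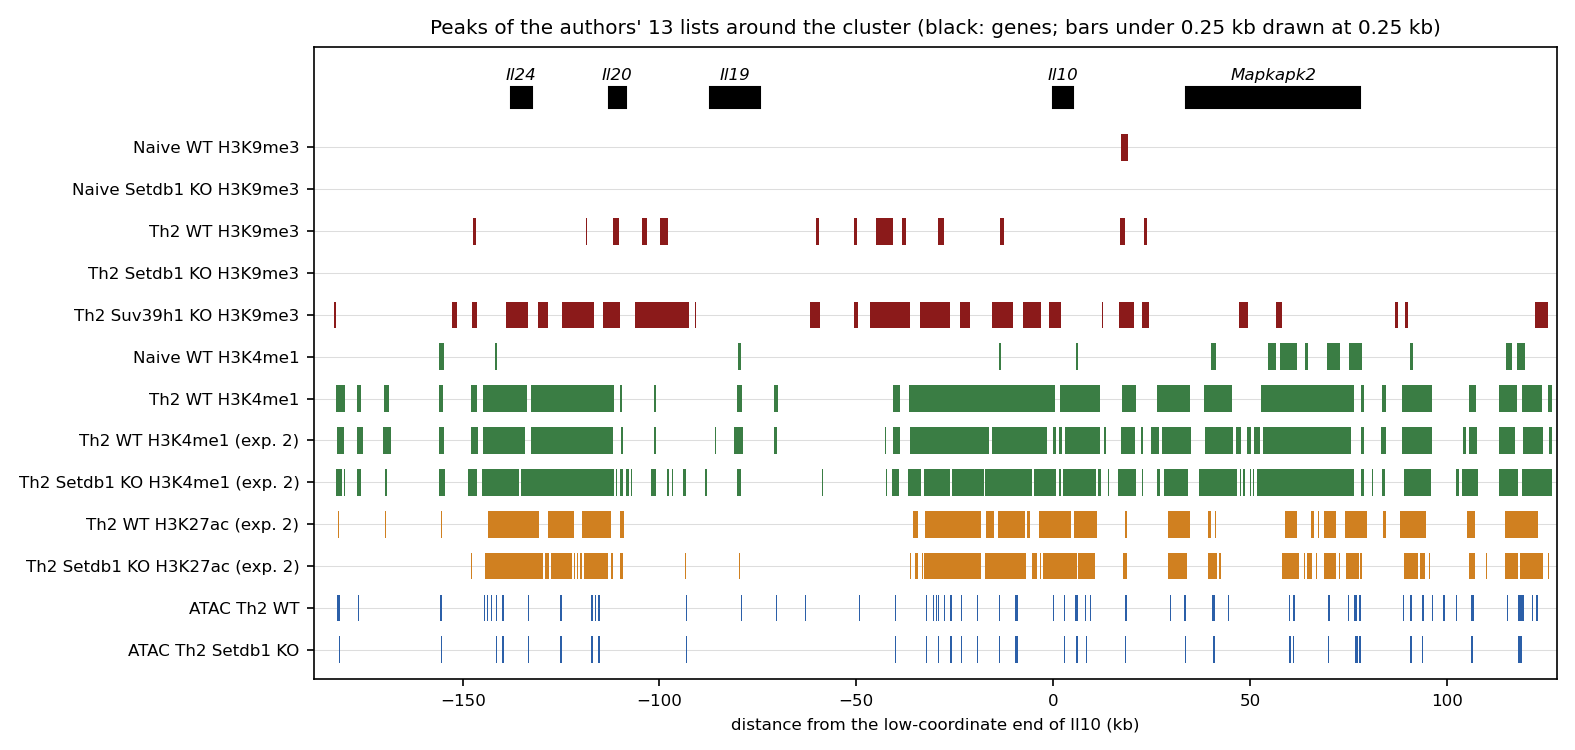
Peaks of the 13 lists (rows) along the window, as distance in kb from the low-coordinate end of Il10, with the 5 genes in black above, to scale (the narrowest peaks are widened to be visible). H3K9me3 rows are empty for both Setdb1 KO lists and hold 13 regions in Th2 WT and 25 in Suv39h1 KO cells, while H3K27ac and H3K4me1 rows of both WT and KO Th2 cells are filled over Il10 and Il24.

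H3K9me3 was called in 13 regions of the window in Th2 WT cells (17.5 kb, 5.54% of the window) and in 1 region in naive WT cells, chr1:131037101-131038750, between Il10 and Mapkapk2. Both Setdb1 KO lists held none here. The Th2 Setdb1 KO list was short as a whole, with 1708 regions against 12233 in Th2 WT, and genome-wide 4.41% of WT regions overlapped a KO region, so 0 of 13 (95% interval up to 24.7%) is not set apart from the genome. The naive KO list held 1163 regions and came from 1 sample, where the other H3K9me3 lists came from 2.

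In Suv39h1 KO cells 25 regions covered 88.5 kb, or 28.0% of the window, and all 13 WT regions overlapped them (95.9% genome-wide); that list was longer as a whole, at 43404 regions. Of the 13 Th2 WT regions 1 overlapped the naive region, or 7.69% (interval 0.195 to 36.0%), beside 43.1% genome-wide.

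Within genes, Th2 WT H3K9me3 lay only over Il20, the gene that stayed near 0, where chr1:130908151-130909650 covered 34.8% of it. H3K27ac peaks covered 35.7% of Il20 in the same cells and 33.3% in Th2 Setdb1 KO cells. In the KO cells no H3K9me3 was called over Il20, and its RNA was near 0 there too. The widest Th2 WT region, chr1:130974851-130979200 (4350 bases), lay 29394 bases from Il19 in the gap before Il10. In Suv39h1 KO cells H3K9me3 covered 83.9% of Il24, 67.6% of Il20, 39.1% of Il10, 8.38% of Mapkapk2 and 0% of Il19. No RNA was measured in Suv39h1 KO cells.

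H3K27ac, the mark of active regulatory DNA, was present over Il10 and Il24 in Th2 cells of both genotypes. Over Il10 the WT peak chr1:131016390-131024392 had a score of 238 and the KO peak chr1:131017260-131025844 a score of 162, covering 88.7% and 100% of the gene. Over Il24 the peaks chr1:130876203-130889171 in WT and chr1:130875566-130890237 in KO covered the whole gene in both. A further block, 18314 bases from Il10 in WT and 18192 bases in KO, was also called in both, at chr1:130987233-131001531 in WT and chr1:130987072-131001653 in KO. The WT list had 27 peaks over 33.1% of the window and the KO list 41 over 34.3%. Of the WT peaks 77.8% overlapped a KO peak (interval 57.7 to 91.4%), beside 77.9% genome-wide, and 63.4% of the KO peaks overlapped a WT peak, beside 71%. In the H3K4me1 lists of the same experiment 89.2% of 37 WT peaks were shared (interval 74.6 to 97.0%), beside 79% genome-wide.

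Accessible chromatin was called at 56 sites in Th2 WT (6.34% of the window) and 33 in Th2 KO cells (3.69%). All 33 KO sites overlapped WT sites, and 58.9% of the WT sites (interval 45.0 to 71.9%) overlapped KO sites, beside 56.6% genome-wide, where the KO list was shorter as well (58523 against 92129). Among the 23 WT sites without a KO counterpart was chr1:131019767-131019999, over the low-coordinate end of Il10. It was a weak site, with a score of 31 that exceeded 23.4% of its list. Others were chr1:131029201-131029587, 4231 bases from Il10, and chr1:130940445-130940594 inside Il19, close to the promoter printed above. Of the 56 WT sites 43 lay in H3K27ac peaks of the same cells, or 76.8% (interval 63.6 to 87.0%), beside 36.4% genome-wide.

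At the printed promoters, the CpG-rich one of Mapkapk2 was covered by accessible chromatin in both genotypes (chr1:131097588-131098036 in WT and chr1:131097554-131098015 in KO) and by H3K27ac in both. The printed Il19 promoter, which lies inside the gene, was covered by H3K4me1 in all 4 lists and by no other mark. The Il20 promoter was covered by H3K4me1 in the Th2 KO list alone. That peak was weak, with a score of 15 that exceeded 30.7% of its list, and the KO list was longer (97052 peaks against 76271 in WT). H3K4me1 covered the Mapkapk2 promoter in the naive WT list. In the Th2 KO list a weak peak, chr1:131098056-131098766, overlapped only its high-coordinate end (score 14, above 24.3% of the list). Both Th2 WT lists held a peak at nearly the same place, starting just outside the promoter at 131098110 and 131098174. No genotype difference is read from this.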

How the data were processed

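RNA-seq, ChIP-seq of 3 histone marks and ATAC-seq of mouse CD4+ T cells were analysed from the deposited files. The signal values of the RNA table are the authors' gene counts after division by size factors, 1 for each library. Counts came out whole, within 0.01, for 100% of the values, and the table holds each of 39179 genes in 2 identical copies, of which the first was used. The submitters' processing notes name cutadapt 1.3, TopHat2 2.0.5, BWA 0.7.10, MACS2 2.1.0, DESeq and the mm10 genome. Not given in the sources used here are the annotation and strand setting of the counting and the caller of the H3K9me3 regions. The score of each peak is the authors' own and served only to describe peaks or to drop those under a list's median. The deposited fold enrichment (ratio) and -log10 p columns of the authors' peak lists were not used.

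RNA was tested with limma 3.58.1 (trend) in R 4.3.3 on log2(value + 1), so that the changes of low genes are understated. The fit took all 18 libraries, with a coefficient for each of the 6 groups (12 residual degrees of freedom). The 17254 genes that reached 10 in 2 or more libraries were tested, and p was adjusted by Benjamini-Hochberg over all of them with a threshold of 0.05. The fit was tested on simulated data. Differences between responses were interaction terms. Where a group had no read, 3 reads in each library served as its floor, for counting error only. edgeR 4.0.16 (quasi-likelihood) and DESeq2 1.42.0 on the recovered reads, TMM scaling, another pseudocount, other filters, thinning of reads to equal depth, leaving out libraries, and the replicate number as a block were the alternatives. Sharing of peaks within 50 kb of the genes needed an overlap of 1 base or more, with 95% exact Clopper-Pearson intervals (Python 3.11.15, scipy 1.17.1) that treat peaks as independent. Gene positions and promoters were RefSeq's for GRCm38.

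The genes and lists were chosen with earlier results of these data known. Named were the 5 genes, Setdb1, up to 4 genes of each list with the largest called difference per comparison, the 5 genes of highest Pearson r with each tested gene (mean of at least 50) and neighbours within 100 kb. From these the text names a selection, and Gata3, Prdm1, Zfp36, Map2k6, Il10rb, Emr1, Cpa3, Lyz2, Foxp3, Gzma, Cd8a, Ikzf4 and Tnfrsf18 were singled out with their values known. The same holds for Cd8b1, Eomes, Flt3, Cd68, Cd2, Cd3e, Trac, Ebf1, Cd79b, Fcrla, Il2ra and Lrrc32.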

Additional observations from a re-analysis of the deposited data

Results flagged for a closer look

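Il19 was at 1.81 in naive WT replicate 3 and at 0 in the other 3 naive WT libraries, which placed that library far from the others, and the value is 1 read. Il20 was at 3.74 (3 reads) in naive WT replicate 1 and at 0 in the other 3. Both libraries were among the 3 naive libraries with many genes detected. Each of the 5 genes was looked at in this way in naive WT, the only group of 4 libraries. A gene with reads in only 1 of those libraries is always flagged, whatever its count, so no chance rate applies to these flags.

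The response of Mapkapk2 to Th2 culture differed between genotypes, by -1.66 on the log2 scale (limma adjusted p = 2.15e-08). All 3 KO libraries were above the 4 WT libraries in naive cells and below the 3 WT libraries after Th2 culture. It was called in each of the other fits that were run.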

How the results depend on the processing

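Of 357 log2 differences of the 4 tested genes under other settings, 317 kept their call, 2 lost it, 38 gained it and none of those called changed sign. With 1 library left out, 247 of 264 kept theirs, 8 lost it and 9 gained it. The number of genes called between genotypes in naive cells was 3 with the replicate block and 2 with DESeq2, and 1 to 3 with 1 library left out. Il10, Il24 and, without naive KO replicate 3, Il19 (adjusted p = 0.0485) make up the gain, and all rest on at most 7 reads in a naive library. In Th2-Th1 cells 1 to 2 genes were called with 1 library left out. For the difference between genotypes in the response to Th2 culture, 4 genes were called with log2(value + 5) and without the 3 naive libraries, 2 with the filter at 50, thinned reads, edgeR and DESeq2, and 1 to 2 with 1 library left out. There the estimate ran from -1.61 to 2.99 for Il10 and from -2.24 to 2.98 for Il24, so its direction depends on how naive values near 0 are treated. For the switch, 2 were called with log2(value + 5), with the groups compared alone, with thinned reads and with DESeq2, 1 without the 3 naive libraries and 1 with edgeR. Il19 between genotypes in Th2 cells was called in 5 of 10 settings (adjusted p from 0.00857 to 0.277), and Il24 with the switch in 5 of 10 in each genotype (WT 1.03e-08 to 0.453, KO 3.61e-12 to 0.423). Where a call moved and no value above shows why, the cause was not tested.

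Same-numbered libraries of different groups had correlated deviations of -0.411 to 0.13, so the numbers do not pair the libraries. With the replicate block the KO difference of Il19 with the switch lost its call (-1.70, adjusted p = 0.0657), and the naive Il10 and Il24 differences gained one (adjusted p = 0.0358 and 0.0148).

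When peaks under their list's median score were dropped, 100% of WT H3K27ac peaks were shared with KO and 50% of naive H3K4me1 peaks with Th2, and 8 of the 13 Th2 WT H3K9me3 regions remained. When 50% of a peak had to be covered, 70.3% of H3K4me1 peaks of WT were shared with KO. Low read numbers limit Il19, Il20 and all naive cytokine values, and Th2 WT libraries were the shallowest of the cultured ones.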
